A study of Mus musculus with 17 samples.

Results

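Ribosome-bound transcripts of 10 genes for proteoglycans, tenascins and hyaluronan handling were followed in the corpus callosum of mice during and after cuprizone feeding. The genes were taken by name, as proteins of 1 matrix network, and are Cd44, Has2, Vcan, Bcan, Ncan, Acan, Cspg5, Ptprz1, Tnc and Tnr. All 10 have a row in each of the 17 deposited libraries, among 52373 gene identifiers that both batches list. All mice had the genotype GFAP-Cre+/- Rpl22HA/wt, and those fed cuprizone were males. In such mice Cre recombinase under the GFAP promoter switches on an HA-tagged ribosomal protein, so that ribosomes of cells with GFAP promoter activity, mainly astrocytes, can be pulled down. Cuprizone, a copper chelator that kills oligodendrocytes, was given as 0.2% of the chow for 5 weeks, starting at 8 to 9 weeks of age. The cuprizone groups were sampled at the end of feeding (5 weeks, acute demyelination), after 0.5 weeks back on normal chow (5.5 weeks, early remyelination) and after 2 weeks on normal chow (7 weeks, late remyelination). The mock group of each week was matched for age and stayed on normal chow.

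Per the labels the design has 3 libraries per group, and 2 in the 5-week mock group. Of the 17 libraries, 8 repeat another library of their group: between 46.6% and 96.2% of their genes with 500 or more counts lie 1 to 10 counts above it. Each was counted as 1 sample with the library it repeats. The 5.5-week comparison then rested on 3 cuprizone and 2 mock libraries, with 1 library per group at 5 and at 7 weeks. Their total counts ranged from 20797535 to 30400048. By the labels, 5-week libraries are of batch 1 and all later ones of batch 2, so a change between 5 weeks and later cannot be told apart from the batch. The astrocyte markers Aqp4 and Slc1a2 were abundant in all groups, but neuronal and oligodendrocyte markers were too, and enrichment over total RNA was not analysed here. The 7-week cuprizone library stood apart. It had 34576 genes with a count, against at most 23980 in the other 8 libraries. All 14 microglia and macrophage, 9 endothelial and 7 pericyte markers measured at that week were at least 2-fold higher in it than in the 7-week mock library.

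Hyaluronan is a long sugar chain that fills the spaces between brain cells. Lecticans, the chondroitin sulfate proteoglycans versican (Vcan), brevican (Bcan), neurocan (Ncan) and aggrecan (Acan), bind hyaluronan at one end and tenascins at the other, and together they form the bulk of brain matrix. After injury, reactive astrocytes and oligodendrocyte precursors deposit such proteoglycans, and they are known to restrain axon growth and the maturation of oligodendrocyte precursors. Cd44 is the main cell surface receptor for hyaluronan and Has2 is a synthase that extrudes it.

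**Figure D1:**
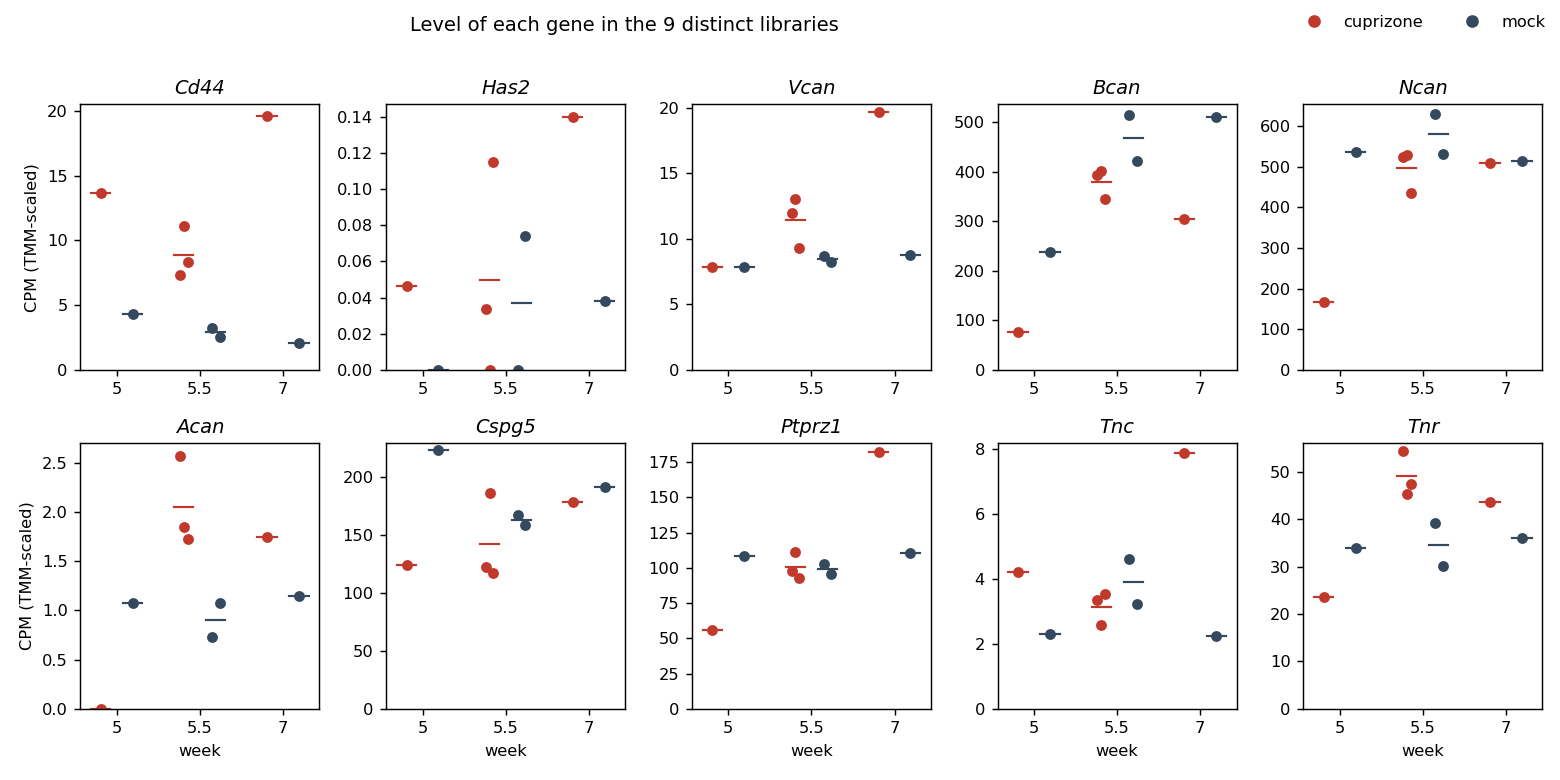
Level of each of the 10 genes in CPM (counts scaled by TMM library size within a week; linear axes from 0, 1 scale per gene) by week, with cuprizone libraries in red to the left of mock libraries in dark blue. Each point is 1 of the 9 distinct libraries and bars mark the group mean. The Cd44 points of cuprizone libraries, from 7.30 to 19.6 CPM, all lie above those of mock libraries, from 2.098 to 4.29 CPM.

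Per length, brevican and neurocan were the most abundant of the 10 and Has2 the least. Levels were divided by the union of exons in GENCODE M21, in kilobases, which overstates the length of genes with rarely used exons. At 5.5 weeks Bcan averaged 93.6 CPM per kilobase in cuprizone and 115 in mock, and Ncan 69.0 in cuprizone and 80.8 in mock. Cspg5 followed with 14.1 in cuprizone and 16.2 in mock, Ptprz1 with 7.06 and 6.95 CPM per kilobase in the same order of groups, and Tnr with 3.81 in cuprizone and 2.69 in mock. The next in order changed places between groups. In mock, Vcan (0.599 and 0.567 CPM per kilobase), Tnc (0.593 and 0.416) and Cd44 (0.475 and 0.378) overlapped as neighbours. In cuprizone, Cd44 (1.08 to 1.64 CPM per kilobase) stood above Vcan (0.642 to 0.902), and Vcan above Tnc (0.331 to 0.454). Acan averaged 0.274 CPM per kilobase in cuprizone and 0.121 in mock. Brevican and neurocan also changed places: at 5 weeks Ncan was above Bcan in the cuprizone library (23.3 against 19.1 CPM per kilobase) and in the mock library (74.8 against 58.7), while in both later mock groups Bcan was above Ncan.

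Promoters are shown for the 3 genes that were at least 2-fold higher in the 7-week cuprizone library, since their start regions can then be read side by side. Each sequence runs 5′ to 3′ from 250 bases before to 50 bases after a start site in RefSeq (GRCm38.p6), and 8 of the 10 genes have an entry. Cd44 lies at chr2:102901616-102901915, minus strand, Vcan at chr13:89742463-89742762, minus strand, and the Tnc window shown at chr4:64046887-64047186, minus strand.
Cd44: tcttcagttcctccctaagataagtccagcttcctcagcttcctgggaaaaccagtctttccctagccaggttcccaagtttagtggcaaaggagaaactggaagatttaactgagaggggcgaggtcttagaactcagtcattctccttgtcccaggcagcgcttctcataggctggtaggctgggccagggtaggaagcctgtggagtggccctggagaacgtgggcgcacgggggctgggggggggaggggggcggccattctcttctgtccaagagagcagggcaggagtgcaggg
Vcan: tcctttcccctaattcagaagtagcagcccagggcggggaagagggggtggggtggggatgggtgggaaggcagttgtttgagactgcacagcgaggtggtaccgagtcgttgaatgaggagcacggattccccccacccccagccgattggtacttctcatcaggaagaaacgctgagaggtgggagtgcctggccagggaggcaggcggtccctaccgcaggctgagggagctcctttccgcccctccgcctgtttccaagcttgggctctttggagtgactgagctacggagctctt
Tnc: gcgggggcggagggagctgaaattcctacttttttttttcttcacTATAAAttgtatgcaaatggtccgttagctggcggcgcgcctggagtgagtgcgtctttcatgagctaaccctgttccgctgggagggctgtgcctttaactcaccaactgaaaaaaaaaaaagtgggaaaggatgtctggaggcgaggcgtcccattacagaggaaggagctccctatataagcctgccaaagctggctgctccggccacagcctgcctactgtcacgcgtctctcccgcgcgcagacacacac
Capitals mark matches on either strand to any of 4 motifs. These were the AP-1 motif, written TGANTCA, the STAT motif, written TTCNNNGAA, the NF-kappaB motif and the core promoter box written TATAAA, and no matches overlapped. The only match to these letters in the 3 sequences was TATAAA in the Tnc window, at position −205 from the start site. The same match lies in a second, overlapping Tnc window. The Tnc sequence shown also holds tatataag nearer to the start site, which a search for the exact letters TATAAA misses. Whether either acts as a core promoter box was not tested. TATAAA was also found in Ncan, thus in 2 of 8 genes, while the share of all 32851 promoters of this length with it was 13.6%. The first is counted per gene and the second per promoter, so they are not directly comparable. None of the 8 had a match to the AP-1, STAT or NF-kappaB letters, which 7.81%, 8.30% and 1.47% of all promoters hold.

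Cd44 (ENSMUSG00000005087, chromosome 2), the hyaluronan receptor, was the only 1 of the 9 tested genes that passed the test at 5.5 weeks, and it was higher in cuprizone libraries at every week. At 5.5 weeks it had 7.30, 11.1 and 8.29 CPM in the cuprizone libraries, against 3.22 and 2.56 CPM in the mock libraries, from 216, 246 and 216 counts against 93 and 69. Every cuprizone library was above both mock libraries. The means were 8.90 ± 1.98 CPM in cuprizone (SD, n = 3) and 2.89 ± 0.466 CPM in mock (SD, n = 2), and edgeR gave a log2 fold change of 1.61 ± 0.23 (SE, adjusted p = 0.00534). Of 16086 genes tested, 1.08% were called higher and 0.392% lower. The call was lost without mock 3 (log2 fold change 1.47, edgeR adjusted p = 0.0779) and held without any other 1 library. In these bulk samples, a change in the number of cells of a type and a change in RNA per cell cannot be told apart. Markers of microglia, which also carry Cd44, summed to 66.5 to 96.9 CPM in cuprizone and 45.6 to 51.5 CPM in mock. Of these 14, 1 was called (Lyz2), 9 had an unadjusted edgeR p under 0.05 and none had a group mean of 0 (list median log2 fold change 0.73). The share of all tested genes under that unadjusted threshold is not given, so the 9 cannot be set against a background. Astrocyte markers summed to 13919 to 16344 CPM in cuprizone and 10757 to 11248 CPM in mock. Of these 12, 1 was called higher (list median log2 fold change −0.06). The part of either cell type in the Cd44 result was not tested.

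At 5 weeks Cd44 had 13.7 CPM in the cuprizone library and 4.29 CPM in the mock library, a ratio of 3.19 (95% interval 2.502 to 4.09, 294 against 88 counts). The 7-week level was 19.6 CPM in the cuprizone library and 2.098 CPM in the mock library, a ratio of 9.35 (7.08 to 12.6, 561 against 55 counts). Neither ratio has a replicate check. At least 2-fold higher were 8.89% of 11570 genes at 5 weeks and 9.90% of 12173 genes at 7 weeks, and at least 2-fold lower 12.2% and 5.54%. The summed microglia markers were 138 CPM in cuprizone and 61.0 CPM in mock at 5 weeks, and 1413 CPM in cuprizone and 79.7 CPM in mock at 7 weeks. The endothelial list summed to 0.697 CPM in cuprizone and 4.83 CPM in mock at 5 weeks. Its markers Cdh5, Tek and Emcn had 0 counts in both 5-week libraries. At 7 weeks the endothelial list summed to 274 CPM in cuprizone and 6.68 CPM in mock. The part of these cells in the 7-week value was not tested.

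Has2 (ENSMUSG00000022367, chromosome 15) was barely detected in any group. It had 1, 0 and 3 counts in the cuprizone libraries at 5.5 weeks and 0 and 2 counts in the mock libraries, and was too low to be tested. At 5 weeks it had 1 count in the cuprizone library and 0 in the mock library. The 7-week libraries had 4 counts in cuprizone and 1 in mock, a ratio of 3.67 with an interval from 0.363 to 181. No difference was detectable at this depth.

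**Figure D2:**
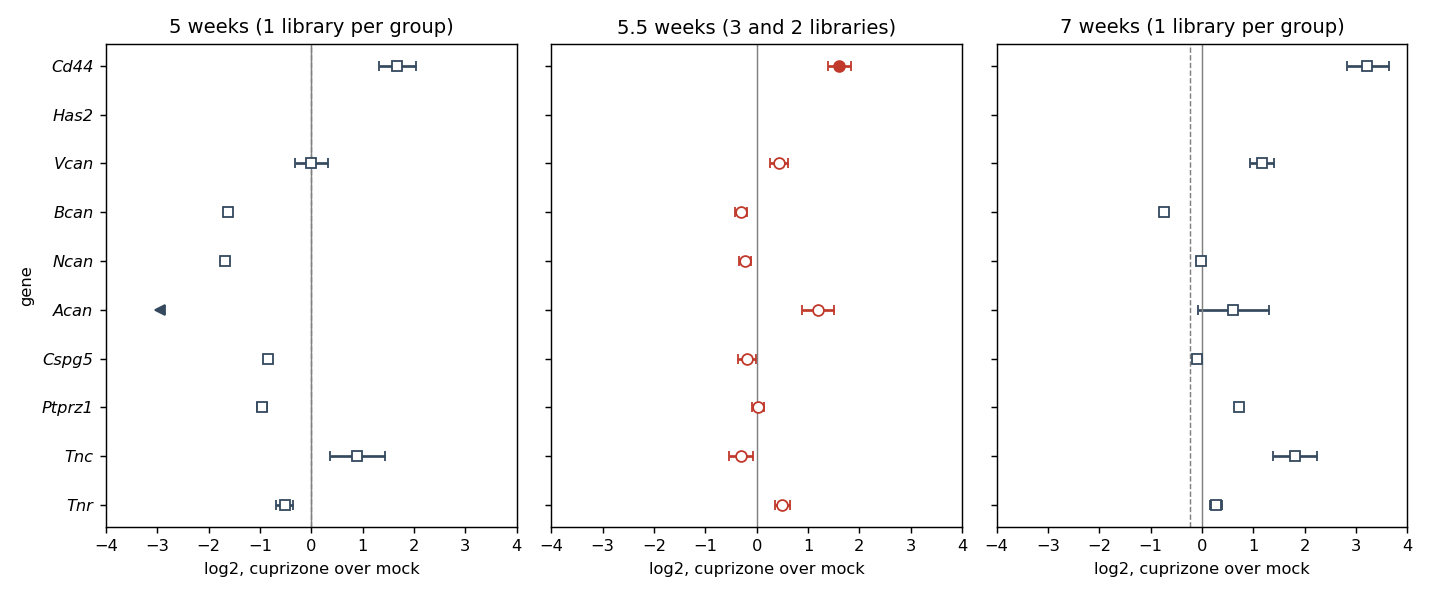
Log2 ratio of cuprizone over mock for each gene at 5, 5.5 and 7 weeks. Circles are edgeR estimates with SE, filled where called (Cd44 at 5.5 weeks, 1.61), squares are ratios of 1 library per group with 95% counting intervals, the triangle is a bound for Acan with 0 counts in cuprizone, and dashed lines mark the median of all measured genes (−0.23 at 7 weeks). Has2 is not drawn, with 4 counts or fewer in each of the 9 distinct libraries.

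Brevican and neurocan, the lecticans of adult astrocytes, were lower in the cuprizone library at 5 weeks. Bcan (ENSMUSG00000004892, chromosome 3) had 77.5 CPM in the cuprizone library and 239 CPM in the mock library, thus 3.08-fold lower in cuprizone (95% interval 2.91 to 3.26, 1667 against 4893 counts). Ncan (ENSMUSG00000002341, chromosome 8) had 168 CPM in the cuprizone library and 538 CPM in the mock library, 3.21-fold lower in cuprizone (3.09 to 3.33, 3610 against 11032 counts). The astrocyte marker list as a whole had a median log2 ratio of −0.25, while it summed to 19087 CPM in cuprizone and 9258 CPM in mock. Among its 12 genes Gfap was at least 2-fold higher and Fgfr3 at least 2-fold lower. The oligodendrocyte precursor list had a median of 0.64 at 5 weeks and −0.65 at 7 weeks. The part of these or other cells in the Bcan and Ncan values was not tested. The median over all measured genes was −0.00 at 5 weeks, and the median over the 7 measured members −0.85. Bcan in the 5-week mock library was also below the mock libraries of the other batch, at 515 and 423 CPM at 5.5 weeks and 511 CPM at 7 weeks.

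At 5.5 weeks the brevican and neurocan levels lay below mock by less than the test could call. Bcan had 394, 401 and 346 CPM in the cuprizone libraries, against 515 and 423 CPM in the mock libraries. The groups did not overlap, and the log2 fold change was −0.30 ± 0.12 (SE, edgeR adjusted p = 0.368). Ncan had 524, 530.1 and 436 CPM in cuprizone, against 631 and 532 CPM in mock, and edgeR put the log2 fold change at −0.23 ± 0.12 (adjusted p = 0.558). Its highest cuprizone library was just under its lowest mock library. At 7 weeks Bcan had 305 CPM in the cuprizone library and 511 CPM in the mock library, 1.67-fold lower in cuprizone (1.63 to 1.72). Ncan had 510.3 CPM in cuprizone and 515 CPM in mock at 7 weeks, a ratio of 0.991 (0.968 to 1.01).

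The values at 7 weeks depend on the scaling. The median log2 ratio of all measured genes was −0.23 with TMM, −0.23 with RLE size factors and 0.22 with total counts. Relative to that median, Bcan was at −0.52 and Ncan at 0.21 with TMM, and at −0.53 and 0.20 with total counts. Unadjusted for it, Ncan went to the other side of 0 with total counts (0.41), as did Cspg5 (0.33, against −0.10 with TMM).

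Versican (ENSMUSG00000021614, chromosome 13), a lectican made by oligodendrocyte precursors, vessels and fibroblasts as well as astrocytes, was at equal levels at 5 weeks and higher in the cuprizone library at 7 weeks. At 5 weeks it had 7.86 CPM in the cuprizone library and 7.85 CPM in the mock library, a ratio of 1.00 (0.802 to 1.25). At 5.5 weeks it had 11.96, 13.0 and 9.29 CPM in the cuprizone libraries, against 8.66 and 8.20 CPM in the mock libraries. The groups did not overlap, but the log2 fold change of 0.44 ± 0.18 (SE) did not pass the test (edgeR adjusted p = 0.373). At 7 weeks Vcan had 19.6 CPM in cuprizone and 8.74 CPM in mock, a ratio of 2.25 (1.93 to 2.63, 562 against 229 counts), which is 1.39 on the log2 scale above the median of all measured genes. Pericyte markers summed to 289.8 CPM in cuprizone and 31.6 CPM in mock at 7 weeks, next to the endothelial and microglial sums above, while oligodendrocyte precursor markers summed to 435 CPM in cuprizone and 939 CPM in mock. Fibroblast and meningeal markers summed to 14.8 CPM in cuprizone and 559 CPM in mock at 5 weeks, 130.4 to 154 CPM in cuprizone and 330.8 to 343 CPM in mock at 5.5 weeks, and 399 CPM in cuprizone and 407.5 CPM in mock at 7 weeks. Most of these sums was Ptgds, and at 7 weeks 3 of the 5 measured markers (Col1a1, Col1a2 and Slc6a13) were at least 2-fold higher in cuprizone and none lower, with a list median log2 ratio of 2.38. The part of these cells in the Vcan values was not tested.

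Aggrecan (ENSMUSG00000030607, chromosome 7), the lectican of perineuronal nets around neurons, was rare. At 5.5 weeks Acan had 2.57, 1.85 and 1.73 CPM in the cuprizone libraries, against 0.727 and 1.08 CPM in the mock libraries. The groups did not overlap, with 76, 41 and 45 counts in cuprizone against 21 and 29 in mock, and the log2 fold change of 1.19 ± 0.31 (SE) did not pass the test (edgeR adjusted p = 0.106, range over the alternatives 0.0142 to 0.385). At 5 weeks Acan had 0 counts in the cuprizone library and 22 in the mock library, at least 7.69-fold lower in cuprizone when 3 counts are taken as the floor of that library. At 7 weeks it had 50 counts in cuprizone and 30 in mock, a ratio of 1.53 (0.952 to 2.49). Summed neuronal markers were 12347 CPM in cuprizone and 14845 CPM in mock at 5 weeks, 10785 to 12033 CPM in cuprizone and 10887 to 11756 CPM in mock at 5.5 weeks, and 7753 CPM in cuprizone and 12717 CPM in mock at 7 weeks. At 5 weeks 4 of the 12 markers were at least 2-fold lower in cuprizone and none higher (median log2 ratio −0.38). At 7 weeks 4 were at least 2-fold higher (Gad1, Gad2, Pvalb and Sst, all of inhibitory neurons) and 1 lower (Snap25), with a median of −0.28. None of the 12 was called at 5.5 weeks by edgeR or DESeq2, none had an unadjusted p under 0.05, and their part in the Acan values was not tested.

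Within each library, the share of lectican counts that came from versican was higher in cuprizone at all 3 weeks, a measure that no scaling between libraries can move. Vcan made up 3.10% of lectican counts in the 5-week cuprizone library (95% exact interval 2.66 to 3.60) and 1.00% in the 5-week mock library (0.852 to 1.17). Since the Vcan level itself had a ratio of 1.00 at 5 weeks, this difference in share restates the lower Bcan and Ncan of that library. At 5.5 weeks its share was 1.28%, 1.38% and 1.17% in the cuprizone libraries, against 0.750% and 0.851% in the mock libraries. The 7-week share was 2.35% in cuprizone (2.16 to 2.55) and 0.843% in mock (0.738 to 0.959). The groups at 5.5 weeks did not overlap, but with 3 against 2 libraries the smallest two-sided p of an exact permutation test is 0.2. Counts of Bcan per count of Ncan were 0.462 in cuprizone and 0.444 in mock at 5 weeks, 0.752, 0.757 and 0.793 in cuprizone against 0.816 and 0.795 in mock at 5.5 weeks, and 0.598 in cuprizone against 0.993 in mock at 7 weeks.

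**Figure D3:**
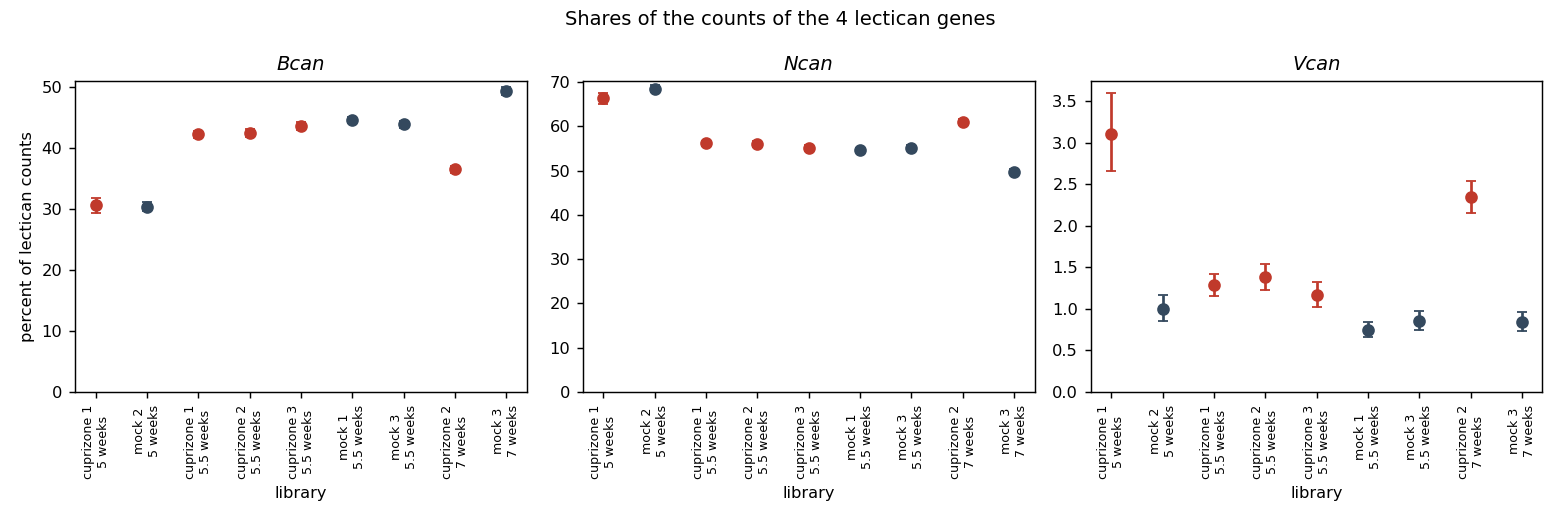
Share of the summed counts of Vcan, Bcan, Ncan and Acan taken by Bcan, Ncan and Vcan in each of the 9 distinct libraries, in percent, with exact 95% binomial intervals for counting error (cuprizone red, mock dark blue, axes from 0). The Vcan share lies between 1.17% and 3.10% in the cuprizone libraries and between 0.750% and 1.00% in the mock libraries.

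Cspg5 (neuroglycan C, ENSMUSG00000032482, chromosome 9), a membrane chondroitin sulfate proteoglycan with an EGF-like domain, was lower in cuprizone at 5 weeks. It had 124 CPM in the cuprizone library and 224 CPM in the mock library, 1.80-fold lower in cuprizone (1.72 to 1.89). At 5.5 weeks it had 123, 187 and 118 CPM in the cuprizone libraries, against 167 and 159 CPM in the mock libraries, and the groups overlapped because cuprizone 2 was the highest of all. The log2 fold change was −0.20 ± 0.18 (SE, edgeR adjusted p = 0.75). The 7-week levels were 179 CPM in cuprizone and 191 CPM in mock, a ratio of 0.934 (0.898 to 0.971).

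Ptprz1 (ENSMUSG00000068748, chromosome 6), a receptor tyrosine phosphatase whose secreted form is the proteoglycan phosphacan, was lower in cuprizone at 5 weeks and higher at 7 weeks. At 5 weeks it had 55.7 CPM in the cuprizone library and 108 CPM in the mock library, 1.95-fold lower in cuprizone (1.81 to 2.09). At 5.5 weeks it had 97.6, 111 and 93.1 CPM in the cuprizone libraries, against 103 and 95.5 CPM in the mock libraries. These overlapped, and edgeR put the log2 fold change at 0.02 ± 0.11 (SE, adjusted p = 0.965). Levels at 7 weeks were 182 CPM in cuprizone and 111 CPM in mock, a ratio of 1.65 (1.57 to 1.72), or 0.95 on the log2 scale above the median of all measured genes. Markers of oligodendrocyte precursors, which also make Ptprz1, had a median log2 ratio of 0.64 at 5 weeks (3 of 11 measured at least 2-fold higher, 2 lower) and −0.65 at 7 weeks (0 of 11 higher, 3 lower).

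Tenascin C (Tnc, ENSMUSG00000028364, chromosome 4), a matrix glycoprotein of developing and injured tissue that binds lecticans, was low in every group. It was higher in the cuprizone library at 7 weeks. At 5 weeks it had 4.23 CPM in the cuprizone library and 2.29 CPM in the mock library, a ratio of 1.85 (1.28 to 2.68, 91 against 47 counts). Neither library reached the minimum of 5 CPM, so Tnc was not among the genes compared at that week. At 5.5 weeks it had 3.34, 2.57 and 3.53 CPM in the cuprizone libraries, against 4.61 and 3.23 CPM in the mock libraries, and the groups overlapped (log2 fold change −0.31 ± 0.23 SE, edgeR adjusted p = 0.692). At 7 weeks it had 7.90 CPM in cuprizone and 2.25 CPM in mock, a ratio of 3.51 (2.63 to 4.76, 226 against 59 counts). Its highest level thus lay in the library in which vascular and microglial markers were also highest, and their part in it was not tested.

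Tenascin R (Tnr, ENSMUSG00000015829, chromosome 1) is made mainly by oligodendrocyte lineage cells and some neurons. It was lower in the cuprizone library at 5 weeks and slightly higher at 7 weeks, with 1 library per group at each week. At 5 weeks it had 23.7 CPM in the cuprizone library and 33.9 CPM in the mock library, 1.43-fold lower in cuprizone (1.28 to 1.61). At 5.5 weeks it had 54.5, 45.3 and 47.5 CPM in the cuprizone libraries, against 39.3 and 30.03 CPM in the mock libraries. The groups did not overlap, but the log2 fold change of 0.50 ± 0.14 (SE) did not pass the test (edgeR adjusted p = 0.15, range over the alternatives 0.00369 to 0.648). Mature oligodendrocyte markers summed to 18976 to 23319 CPM in cuprizone and 15991 to 16716 CPM in mock, with 3 of 12 called higher and 1 lower, and precursor markers to 767 to 877 CPM in cuprizone and 725 to 786 CPM in mock, with 1 of 12 called (Gpr17). At 7 weeks Tnr had 43.6 CPM in cuprizone and 36.1 CPM in mock, a ratio of 1.21 (1.11 to 1.31). Neither the 5-week nor the 7-week ratio has a replicate check, and their intervals cover counting error only. The 2 mock libraries of 5.5 weeks (39.3 and 30.03 CPM) were further apart than the 7-week pair. Mature oligodendrocyte markers summed to 10546 CPM in cuprizone and 16029 CPM in mock at 5 weeks, with 8 of 12 at least 2-fold lower in cuprizone and none higher (median log2 ratio −1.52). At 7 weeks they summed to 14465 CPM in cuprizone and 21541 CPM in mock. Of the 12, 3 were at least 2-fold lower and none higher (median log2 ratio −0.24). The part of these cells in the Tnr values was not tested.

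Counted over the 9 genes tested at 5.5 weeks, 1 was called higher and none lower by edgeR. At an unadjusted edgeR p under 0.05 were Cd44, Vcan, Bcan, Acan and Tnr. The share of all tested genes under that threshold is not given, here or for the other lists. Such counts can thus not be set against a background. DESeq2 and limma-voom also called Cd44 alone. The groups did not overlap in 6 of the 9 (Cd44, Vcan, Acan and Tnr higher, Bcan and Ncan lower). Of all genes tested, 28.0% did not overlap, 13.2% with cuprizone above mock and 14.8% with cuprizone below. The median log2 fold change was 0.02 over the 9 genes and 0.00 over all genes.

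A fit of all 9 distinct libraries gave calls at 5 and 7 weeks too, but it assumes that the lone libraries of those weeks vary like those of 5.5 weeks. At 5 weeks it called Cd44 higher (edgeR adjusted p = 0.000696) and Bcan, Ncan, Acan, Cspg5 and Ptprz1 lower, where 14.6% of 20292 genes were called higher and 18.5% lower. At 5.5 weeks Cd44 alone was called, with 1.22% of all genes higher and 0.404% lower. At 7 weeks Cd44, Vcan, Ptprz1 and Tnc were called higher and Bcan lower, where 24.0% of all genes were higher and 15.4% lower. The cuprizone effect was larger at 7 than at 5.5 weeks for Cd44, Ptprz1 and Tnc, as for 10.3% of all genes, with 6.92% smaller. It was higher on the log2 scale at 5.5 than at 5 weeks for Bcan, Ncan, Acan, Ptprz1 and Tnr, as for 14.3% of all genes, with 8.91% lower, and there week and batch cannot be told apart.

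**Figure D4:**
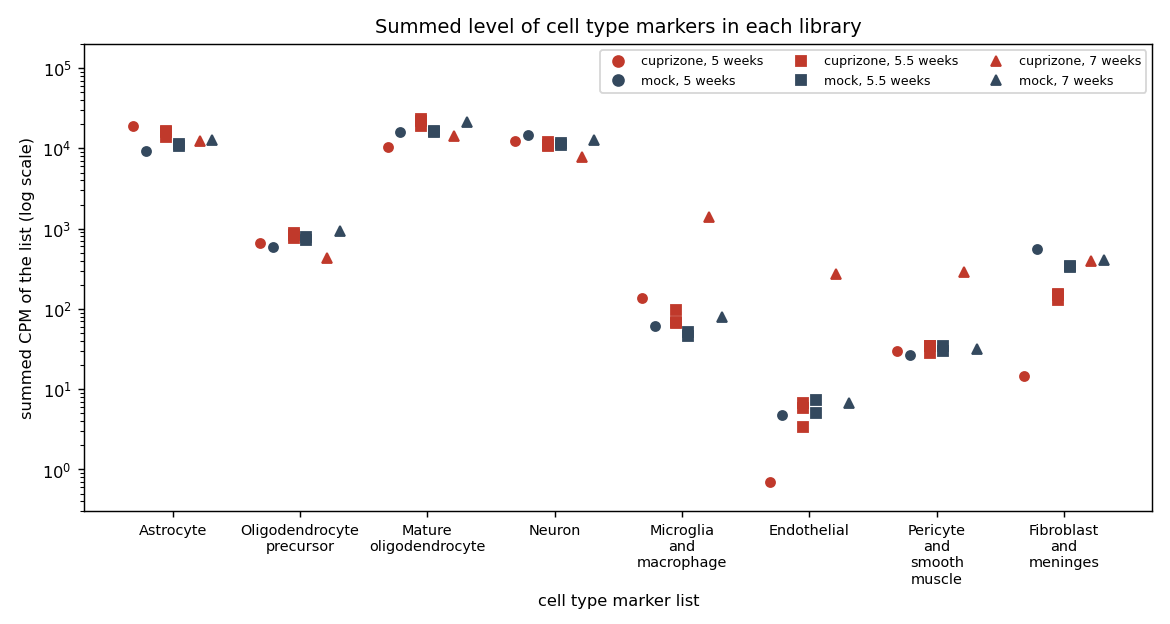
Summed CPM (log scale) of 8 lists of cell type markers in each of the 9 distinct libraries, by week (circles 5, squares 5.5, triangles 7 weeks; cuprizone red and left of mock in dark blue). The 7-week cuprizone library is highest for microglia (1413 CPM), endothelial (274 CPM) and pericyte markers (289.8 CPM).

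Of 18 tested genes that build, link or clear hyaluronan, Cemip2, a cell surface hyaluronidase, was called higher at 5.5 weeks. None was called lower, and the list median log2 fold change was −0.09. As a base for this list and those below, 1.08% of all tested genes were called higher at 5.5 weeks and 0.392% lower. At least 2-fold higher were 8.89% of all measured genes at 5 weeks and 9.90% at 7 weeks. At least 2-fold lower were 12.2% at 5 weeks and 5.54% at 7 weeks. Cemip2 had 33.4, 29.7 and 24.8 CPM in cuprizone against 14.0 and 9.13 CPM in mock (log2 fold change 1.34 ± 0.20 SE, edgeR adjusted p = 0.00692), and lost its call without mock 3. At 5 weeks 1 of 10 measured genes was at least 2-fold higher and 4 lower. Ugdh, which makes the UDP-glucuronic acid used for hyaluronan and chondroitin sulfate, had 106 CPM in cuprizone and 21.6 CPM in mock, a ratio of 4.91 (4.43 to 5.44). Hapln2, a link protein of nodes of Ranvier made by oligodendrocytes, had 9.62 CPM in cuprizone and 43.6 CPM in mock, 4.53-fold lower in cuprizone (3.89 to 5.29). Genes under 5 CPM in both 5-week libraries were not compared. Among them Has1 had 3 counts in cuprizone against 65 in mock, and Cemip 0 against 41. Stab2 (10 against 0 counts) and Hmmr (54 against 37) went the other way. At 7 weeks 2 of 11 were at least 2-fold higher, Stab1, a scavenger receptor of macrophages and vessels (10.2 CPM in cuprizone against 0.877 CPM in mock, ratio 11.7, 7.63 to 18.7), and Itih5 (41.9 CPM in cuprizone against 16.2 CPM in mock, ratio 2.59, 2.32 to 2.90).

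None of the 21 tested genes of chondroitin sulfate synthesis was called at 5.5 weeks by edgeR, DESeq2 or limma-voom, and 3 had an unadjusted edgeR p under 0.05 (list median 0.12). At 5 weeks none of 16 measured genes was at least 2-fold higher and 5 were lower (median log2 ratio −0.80). Dsel, a dermatan sulfate epimerase-like enzyme, was 6.64-fold lower in cuprizone (5.09 to 8.78) and Chpf2, a chondroitin polymerizing factor, 6.24-fold lower (3.82 to 10.7). At 7 weeks 1 of 18 was at least 2-fold higher and none lower (median 0.22). Chsy3, a chondroitin sulfate synthase, had 12.7 CPM in cuprizone and 3.40 CPM in mock, a ratio of 3.74 (2.96 to 4.77). The 5-week counts of Chsy3 were 1 in the cuprizone library and 86 in the mock library. Neither library reached 5 CPM for it at 5 weeks, so it was not among the genes compared there. Xylt1, which starts the sugar chain, had a ratio of 1.72 (1.54 to 1.92).

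Among proteases that cut lecticans, and the inhibitor Timp3, 1 of 11 was called higher at 5.5 weeks and none lower (median 0.10). Adamts4, an aggrecanase abundant in oligodendrocytes, had 115, 95.9 and 78.9 CPM in cuprizone against 58.7 and 46.0 CPM in mock (log2 fold change 0.89 ± 0.17 SE, edgeR adjusted p = 0.0229). Its call was lost without mock 1, mock 3 or cuprizone 1. None of 4 measured genes was past 2-fold at 5 weeks, with Adamts4 1.56-fold lower in cuprizone (1.39 to 1.77) and Timp3 1.39-fold lower (1.31 to 1.48). At 7 weeks Adamts20 had a ratio of 2.75 (2.00 to 3.83) and the membrane protease Mmp14 of 1.69 (1.43 to 2.01), and 1 of 5 was past 2-fold.

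Of 24 tested genes listed as other proteoglycans, 2 were called higher at 5.5 weeks and none lower (median 0.20). Whether their proteins carried a sugar chain cannot be read from gene counts. Biglycan (Bgn) rose to 6.25 ± 0.231 CPM in cuprizone (SD, n = 3), against 3.05 ± 0.382 CPM in mock (SD, n = 2; edgeR adjusted p = 0.0216), a call lost without any 1 library other than cuprizone 2. Aplp2, a relative of the amyloid precursor protein App, rose to 858 ± 7.73 CPM in cuprizone, against 513 ± 28.5 CPM in mock (edgeR adjusted p = 0.00534), and kept its call in every alternative. At the other weeks Aplp2 was lower in the cuprizone library, 3.82-fold at 5 weeks (3.69 to 3.95) and 1.25-fold at 7 weeks (1.23 to 1.27). At 5 weeks 10 of 17 measured genes were at least 2-fold lower and none higher (median log2 ratio −1.30). App was 4.37-fold lower in cuprizone (4.24 to 4.50) and the semaphorin and VEGF receptor Nrp1 4.68-fold lower (4.04 to 5.45). At 7 weeks 1 of 18 was at least 2-fold higher and 1 lower. Bgn had a ratio of 4.01 (3.21 to 5.05), and the glypican Gpc5 was 2.48-fold lower in cuprizone (2.31 to 2.65).

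Of 23 tested genes for proteins that bind the 10 or their relatives, 3 were called higher at 5.5 weeks and none lower (median 0.26). Anxa2, a membrane-binding annexin, had 27.9, 26.9 and 21.3 CPM in cuprizone against 7.31 and 7.13 CPM in mock (log2 fold change 1.81 ± 0.16 SE, edgeR adjusted p = 0.00021). Nfasc, neurofascin, had 524, 479 and 378 CPM in cuprizone against 259 and 189 CPM in mock (edgeR adjusted p = 0.0105) and lost its call without mock 3. Spp1, osteopontin, a secreted ligand of Cd44, rose to 2.36 ± 1.07 CPM in cuprizone, against 0.448 ± 0.00333 CPM in mock (edgeR adjusted p = 0.0204), but lost its call without either mock library and with limma-voom. At 5 weeks 3 of 18 were at least 2-fold higher and 9 lower (median log2 ratio −0.998). Spp1 had 212 counts in the cuprizone library and 0 in the mock library, at least 67.4-fold higher with the mock library set to 3 counts, and Anxa2 a ratio of 7.04 (5.98 to 8.34). At 7 weeks 2 of 20 were higher and none lower. Spp1, with 1527 against 7 counts, had a ratio of 199.9 (96.8 to 498), in the library with the high microglia and macrophage sum given above, and Anxa2 a ratio of 2.49 (2.20 to 2.82).

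The genes whose levels ran most like those of 3 members were found over the 9 libraries, among 11210 genes with a mean of at least 5 CPM, by Pearson's r of log2(CPM + 0.5). These libraries share weeks, batches and treatments, so r is a description. For Cd44 they were Slc22a4 (0.986), Plce1 (0.972) and Bace2 (0.952). For Tnc they included Zcchc12 (0.963) and Nup214 (0.931), and for Vcan they were Edem1 (0.967), Col16a1 (0.964) and Bmp1 (0.954). Without the 7-week cuprizone library r was 0.944 to 0.981 for the Cd44 genes, 0.92 for Zcchc12, 0.834 for Nup214 and 0.883 to 0.924 for the Vcan genes.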

How the data were processed

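Libraries were made from RNA that co-precipitated with HA-tagged ribosomes of the corpus callosum. The authors deposited a raw count for every Ensembl gene. The submitters' processing notes list featureCounts 1.6.0, STAR 2.5.4b and FastQC 0.11.9. These notes name GRCm38/mm10 and GRCm39/mm39 without a role, and the strand setting is not given in the sources used here. Symbols and exon lengths came from GENCODE M21, which names 99.4% of the identifiers of batch 1 and 94.0% of those of batch 2. Counts were scaled by TMM within each week and are given as CPM. At 5.5 weeks genes passing filterByExpr (minimum count 10) were tested with edgeR 4.0.16 (quasi-likelihood F test, robust, two-sided, Benjamini-Hochberg over all genes, threshold 0.05). With 1 library per group, 5 and 7 weeks allowed no test within a week, and ratios carry exact Clopper-Pearson 95% intervals for counting error only. Reads are not independent molecules. Log2 ratios used a prior count of 2, and genes reaching 5 CPM in 1 of the 2 libraries were compared. Alternatives used DESeq2 1.42.0 and limma 3.58.1 (R 4.3.3). The genes described and the lists beside them were chosen with earlier results of these data known. All 10 genes are named in every comparison. Of the other lists, named are genes passing the test at 5.5 weeks and the 2 with the largest absolute log2 ratio at 5 and at 7 weeks, with at least 5 CPM. The comparison of effects between weeks was added after seeing the data. The 8 repeating libraries, whole numbers as deposited by the authors with no stated unit, entered alternatives only. A gene among those nearest to Tnc is not reported here.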

Additional observations from a re-analysis of the deposited data

Results flagged for a closer look

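In a fit of all 9 distinct libraries, the lone libraries of 5 and 7 weeks are assumed to vary like those of 5.5 weeks. In that fit the difference of the cuprizone effect between 2 weeks passed the edgeR test (quasi-likelihood, Benjamini-Hochberg over 20292 genes) for 8 differences, given below. Between 7 and 5.5 weeks, within 1 batch, 10.3% of all genes had a larger and 6.92% a smaller effect at 7 weeks. The effect on Tnc was larger at 7 weeks by 2.21 ± 0.44 on the log2 scale (SE, edgeR adjusted p = 0.00215), that on Cd44 by 1.70 ± 0.40 (edgeR adjusted p = 0.00715) and that on Ptprz1 by 0.79 ± 0.22 (edgeR adjusted p = 0.018). All 3 rest on the 7-week cuprizone library, whose microglial and vascular marker sums stand apart. For Vcan the difference was 0.82 ± 0.32 and was not called (edgeR adjusted p = 0.0806).

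Between 5.5 and 5 weeks the batch changes with the week, and 14.3% of genes had a higher and 8.91% a lower log2 effect at 5.5 weeks. The difference was 1.39 ± 0.23 for Bcan, 1.52 ± 0.23 for Ncan, 1.05 ± 0.22 for Ptprz1 and 1.09 ± 0.27 for Tnr (SE, edgeR adjusted p = 0.000126, 5.84e-05, 0.00136 and 0.0046). Week and batch cannot be told apart here. Acan was also called, but with 0 counts in the 5-week cuprizone library its fitted value depends on the prior count and is not given.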

How the results depend on the processing

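At 5.5 weeks edgeR called 173 genes higher and 63 lower, 1 of them a member (Cd44). Leaving out 1 library gave 49 to 189 higher, 16 to 85 lower, 0 to 1 members higher and 0 lower: the lowest counts came without mock 3 (49 and 16), then mock 1 (57 and 31), cuprizone 1 (113 and 17) and cuprizone 3 (24 lower). With no low-count filter 381 were higher and 162 lower, with 3 members (Cd44, Acan and Tnr) higher. All 6 deposited libraries gave 314 higher and 2 members (Cd44 and Acan). The replicate block gave 481 higher and 269 lower, with 3 members higher (Cd44, Acan and Tnr) and 1 lower (Cspg5). The labels tie equal numbers to nothing shared, and on that ground alone the samples are taken to share only a number. Deviations of equal numbers correlated at 0.12 for replicate 1 and −0.13 for replicate 3. These values cannot decide on pairing, since the deviations of the 2 mock libraries are mirror images (correlation −1). Ptprz1, at 0.02, ranged from −0.0535 to 0.0750 without 1 library, below 0 without cuprizone 2 (−0.0535) and without mock 3 (−0.02), and was −0.0539 with the replicate block. The cause of these shifts was not tested.

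At 5 weeks a minimum of 1 CPM raised the genes past 2-fold to 1927 higher and 2321 lower, since more genes are compared. At 7 weeks it gave 3018 higher, and total counts gave 2197 higher and 112 lower, against 1205 and 674 with TMM. No member past 2-fold changed sign under the scalings and library choices run at 5 and 7 weeks. Depth limits Has2 and Acan most.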

Other observations

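In the 8 repeating libraries the 10 genes mostly lay 1 to 10 counts above the library repeated, with exceptions. In 5.5-week mock 2, Bcan was 605 counts and Cd44 18 counts below mock 1. Has2 had 16 counts in 5-week cuprizone 2, against 1 in the library it repeats. Acan had 74 counts in 7-week cuprizone 3, against 50. For genes this low, integers of this size make up much of the value.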
